A study of Mus musculus with 24 samples.

Results

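AMP-activated protein kinase (AMPK), its upstream kinase LKB1 (gene Stk11) and the LKB1-interacting protein (Stk11ip) were followed in the gastrocnemius muscle of mice on 3 high-fat diets. The 9 genes were found by their symbols among the 41174 different probes of the arrays. They were represented by 12 probes, and 9 probes of 8 genes were among the 15958 that were bright enough to be compared. The subunits and Stk11 were taken by name, though with earlier results of these data known. Stk11ip was chosen by its measured log2 ratios, which had a small p-value for rosiglitazone on these same arrays. Its values are therefore given as a description with no test.

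The animals were male C57BL/6N mice that received for 8 weeks, from 3 months of age, 1 of 3 diets. The cHF diet was high in fat, mainly corn oil, with lipids making up 35% of its weight. In the cHF+F diet 15% of these lipids were exchanged for n-3 LC-PUFA, given as a concentrate with 46% DHA and 14% EPA, and the cHF+ROSI diet was cHF supplemented with rosiglitazone, an insulin-sensitising drug, at 10 mg per kg of diet. All 3 groups had been fasted for 10 hours and re-fed a low-fat Chow diet overnight before dissection, so the measurements describe the re-fed state and not feeding on the diets themselves. Each group had 8 mice, each measured on 1 two-colour array, with the RNA of the mouse in Cy5 and a common pool of muscle RNA in Cy3. The pool also held RNA of mice given a higher dose of rosiglitazone, which were not analysed here. The mice were housed in pairs, and the sources used here do not say which mice shared a cage. Values are log2 ratios of the mouse over the pool, so a level can be compared between mice for 1 probe but not between probes.

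AMPK is a heterotrimer that senses a low energy charge of the cell. Its catalytic alpha subunit (Prkaa1, Prkaa2) is activated when LKB1 phosphorylates it, the beta subunit (Prkab1, Prkab2) is the scaffold and binds glycogen, and the gamma subunit (Prkag1, Prkag2, Prkag3) binds AMP, ADP and ATP. In skeletal muscle AMPK stimulates glucose uptake and fatty acid oxidation, and complexes with the gamma 3 subunit are found mainly in fast glycolytic fibres. An array measures transcripts and not phosphorylation or kinase activity.

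The sequences just upstream of 4 members are shown because their ratios are discussed together (Prkaa2, Prkab2, Prkag3) or because the gene was singled out (Stk11ip). They were taken from RefSeq on build GRCm38.p6, and windows of 250 bases before an annotated start were found for all 9 members (11 windows, of which 3 belong to Prkag2). The windows are those of Prkaa2 at chr4:105109899-105110148 on the minus strand, Prkab2 at chr3:97657962-97658211 on the plus strand and Stk11ip at chr1:75521279-75521528 on the plus strand, with 30 bases for Prkag3 at chr1:74748978-74749007 on the minus strand. All are written 5′ to 3′, and capitals mark GGGCGG or its reverse complement (the GC box) and, in Prkag3, CANNTG (the E-box core).
Prkaa2: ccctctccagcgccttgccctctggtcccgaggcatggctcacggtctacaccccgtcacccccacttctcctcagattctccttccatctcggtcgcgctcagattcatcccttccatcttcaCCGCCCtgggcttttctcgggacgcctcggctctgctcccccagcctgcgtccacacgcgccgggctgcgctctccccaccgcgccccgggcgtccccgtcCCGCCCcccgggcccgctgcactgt
Prkab2: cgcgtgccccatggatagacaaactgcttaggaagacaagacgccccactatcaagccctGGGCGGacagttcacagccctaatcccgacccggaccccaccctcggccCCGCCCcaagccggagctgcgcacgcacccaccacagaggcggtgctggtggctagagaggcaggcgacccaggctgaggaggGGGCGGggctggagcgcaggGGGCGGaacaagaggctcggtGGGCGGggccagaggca
Prkag3: gcagtgcgggaaCAGCTGcgggttaagcgc
Stk11ip: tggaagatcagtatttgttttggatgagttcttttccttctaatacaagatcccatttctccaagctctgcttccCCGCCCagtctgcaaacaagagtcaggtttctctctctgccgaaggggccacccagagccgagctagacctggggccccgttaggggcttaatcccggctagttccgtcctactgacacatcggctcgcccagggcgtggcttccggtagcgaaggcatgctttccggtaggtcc

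The GC box occurred 2 times in the Prkaa2 window, 5 times in that of Prkab2 and 1 time in that of Stk11ip, while the Prkag3 window held none. Of the 11 member windows 7 held it, against 32.7% of all 32851 windows. CANNTG was present in 6 of the 11 windows and in 66.2% of all windows, and in Prkag3 it lay 40 bases before the start. AGGTCA, the half-site to which nuclear receptors bind, was searched on both strands and found in 1 member window, an alternative start of Prkag2, against 14% of all windows. No 2 matches of different motifs overlapped in the member windows. The matches describe letters in these windows and not binding.

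The arrays differed in brightness between slides and, on slides 1 to 3, also between diets. In Cy5 the share of spots well above background was 91.1% on the array of cHF+ROSI replicate 4, 50.3% to 61.3% on the other 14 arrays of slides 4 to 8, and 30.4% to 55.1% on the 9 arrays of slides 1 to 3. On each of slides 1 to 3 the cHF array had the lowest share of its slide in both channels. In Cy5 it was 46.0%, 44.2% and 30.4% in cHF, against 55.1%, 46.7% and 41.5% in cHF+F and 51.3%, 52.6% and 50.8% in cHF+ROSI. This did not hold on every slide of 4 to 8, and its part in the differences from cHF was not tested. Each of the 8 slides held 1 mouse of each diet, so a comparison within slides was possible, but each diet always occupied its own position on the slides, so position and diet cannot be told apart. The muscle was checked by fibre genes, and all 9 fast fibre and all 7 slow fibre markers were bright enough to be compared. All 9 kept probes of the members were well above background in both channels on all 24 arrays. In Cy5 0 of them was saturated, and saturation in Cy3 was not counted. Probe positions are those of the array files on mouse build mm8, for which no annotation was used here, so exon and UTR positions are not given.

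No member passed the correction for multiple tests in any of the 3 comparisons. Of the 8 tested probes (7 genes, without Stk11ip) 0 had a limma adjusted p under 0.05 in cHF+F versus cHF, in cHF+ROSI versus cHF and in cHF+F versus cHF+ROSI, where the share called among all 15958 probes was 0% in each. With the unadjusted p, 3 of 8 were under 0.05 in the first comparison against 6.86% of all probes, of which 2 were higher (2.85% of all probes) and 1 was lower (4%). In the second it was 1 of 8 against 4.7%, with 1 higher (1.69%) and 0 lower (3.01%), and in the third 1 of 8 against 6.67%, with 0 higher (4.02%) and 1 lower (2.65%). The ranges of the groups overlapped for every member in each comparison, as they did for all but 0.0689%, 0.0188% and 0.0376% of probes. The 3 comparisons share their groups of mice, so these counts are not independent. The members were chosen with earlier results of these data known, so the shares of all probes are no unbiased measure for them. All named differences are on the log2 scale, with the first-named diet minus the second. In whole muscle a lower signal can stand for fewer cells of a type or for less RNA per cell, and the measurement cannot tell these apart.

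**Figure D1:**
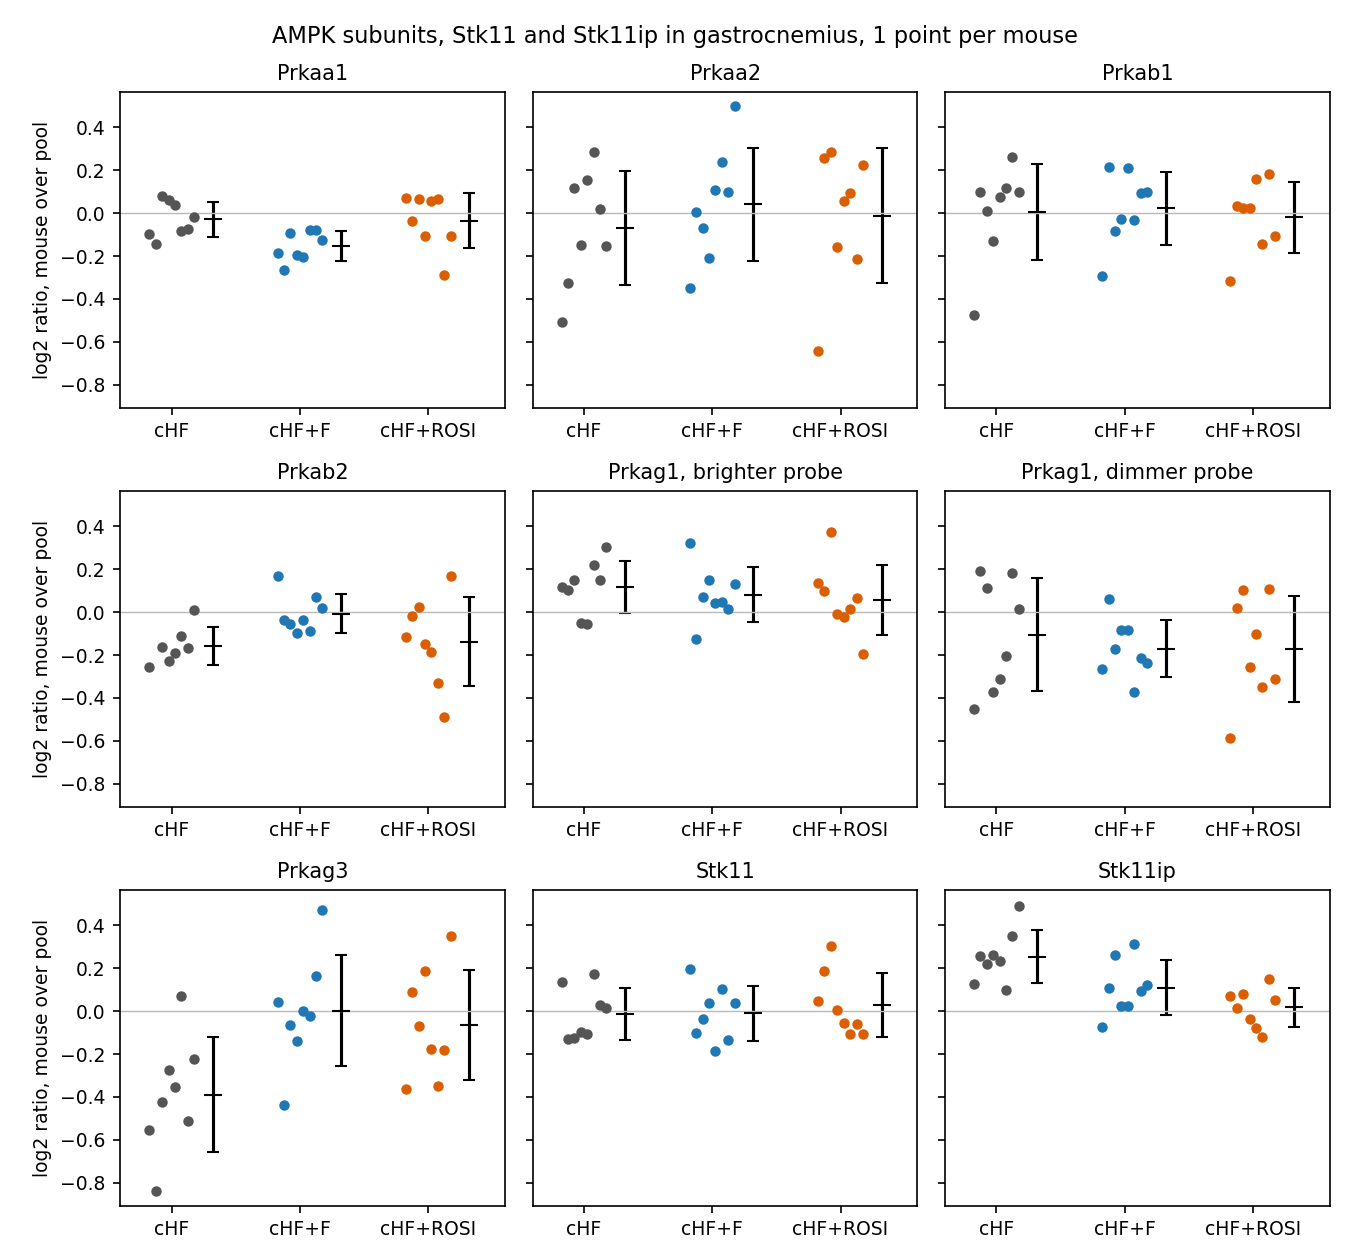
Log2 ratio of the mouse over the common pool (vertical axis) for the 9 probes bright enough to be compared, in 8 mice per diet (7 for Prkab2 in cHF). Points are mice, and the bar beside them is the mean with its SD. Prkag3 lies lower in the cHF group, with a mean of -0.39 against 0.0021 in cHF+F and -0.064 in cHF+ROSI, and all groups overlap for every probe.

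The gamma 3 subunit had the largest differences among the tested members in both comparisons with cHF, though not between cHF+F and cHF+ROSI, and none passed the correction. Prkag3 (probe A_52_P107923, chromosome 1, 74674013 to 74674402, a span longer than the 60-base probe) had log2 ratios in the cHF mice from -0.84 to 0.069 with a median of -0.39, in the cHF+F mice from -0.44 to 0.47 with a median of -0.010, and in the cHF+ROSI mice from -0.36 to 0.35 with a median of -0.12. Of the 8 cHF+F mice 7, and of the 8 cHF+ROSI mice 8, lay above the cHF mean, yet the groups overlapped. The mean was -0.39 ± 0.27 in cHF, 0.0021 ± 0.26 in cHF+F and -0.064 ± 0.26 in cHF+ROSI (SD, n = 8 each).

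The difference of Prkag3 for cHF+F versus cHF was 0.39 (SE 0.12, 95% interval 0.14 to 0.64, 1.31-fold), with a limma unadjusted p of 0.00328 and an adjusted p of 0.448. For cHF+ROSI versus cHF it was 0.32 (SE 0.12, 95% interval 0.077 to 0.57, 1.25-fold), with a limma unadjusted p of 0.0123 and an adjusted p of 0.996. Both comparisons used the same cHF mice. Between cHF+F and cHF+ROSI the difference was 0.066 with a 95% interval of -0.18 to 0.31, which neither shows a difference nor that the diets were alike.

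Within slides, Prkag3 was higher in the cHF+F than in the cHF mouse on 7 of 8 slides, with differences from -0.091 to 0.69 and a median of 0.38. The cHF+ROSI mouse was above the cHF mouse on 7 of 8 slides as well, with differences from -0.42 to 0.93 and a median of 0.34. Slide 6 was the exception in both comparisons, since its cHF mouse had the highest ratio of the cHF group. The signal of the mouse alone, without the pool, gave 0.32 for cHF+F versus cHF and 0.16 for cHF+ROSI versus cHF, and the pool, which should not differ between diets, gave -0.076 and -0.14. With the signal of the mouse alone the limma unadjusted p was 0.155 and 0.47.

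The other gamma subunits were less variable or too dim. Prkag1, the gamma subunit expressed in most tissues, was measured by 2 kept probes on chromosome 15. The brighter one (A_51_P121818, 98641005 to 98641064) had means of 0.12 ± 0.12 in cHF, 0.081 ± 0.13 in cHF+F and 0.058 ± 0.16 in cHF+ROSI (SD, n = 8 each), with differences of -0.036 for cHF+F versus cHF (95% interval -0.18 to 0.11) and -0.060 for cHF+ROSI versus cHF (-0.20 to 0.084). The dimmer one (A_52_P273546, 98642589 to 98642648) gave -0.067 and -0.068, with 95% intervals of -0.28 to 0.15 in both. Across the 24 arrays the Pearson correlation of the 2 Prkag1 probes was 0.25, and it was 0.70 after the means of group and slide had been subtracted from each. The share of the variance that lay between slides was 65.7% for the dimmer probe and 28.6% for the brighter one. Part of such a share arises without any effect of slides, since each slide held few arrays.

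Prkag2, a gamma subunit best known from heart muscle, was not bright enough. Its probe A_51_P460869 (chromosome 5, 24372982 to 24373041) had a mean ratio of signal to background of 3.37 in Cy5 and of 1.96 in Cy3, just under the minimum of 2, and was well above background in Cy5 on 22 of 24 arrays. Its log2 ratios were 0.072 ± 0.094 in cHF (n = 8), 0.23 ± 0.16 in cHF+F (n = 8) and -0.0033 ± 0.10 in cHF+ROSI (n = 7, since 1 spot had a quality flag). The other probe (A_52_P389105, chromosome 5, 24385603 to 24385662) was well above background in Cy5 on 1 array. Without the filter on dim probes, the differences for cHF+F versus cHF were 0.16 for the former and -0.070 for the latter, so the probes pointed in opposite directions, and neither passed the correction (limma adjusted p 0.422 and 0.72). For cHF+F versus cHF+ROSI the former gave 0.24 (limma unadjusted p 0.000952, adjusted p 0.773) and the latter -0.054.

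**Figure D2:**
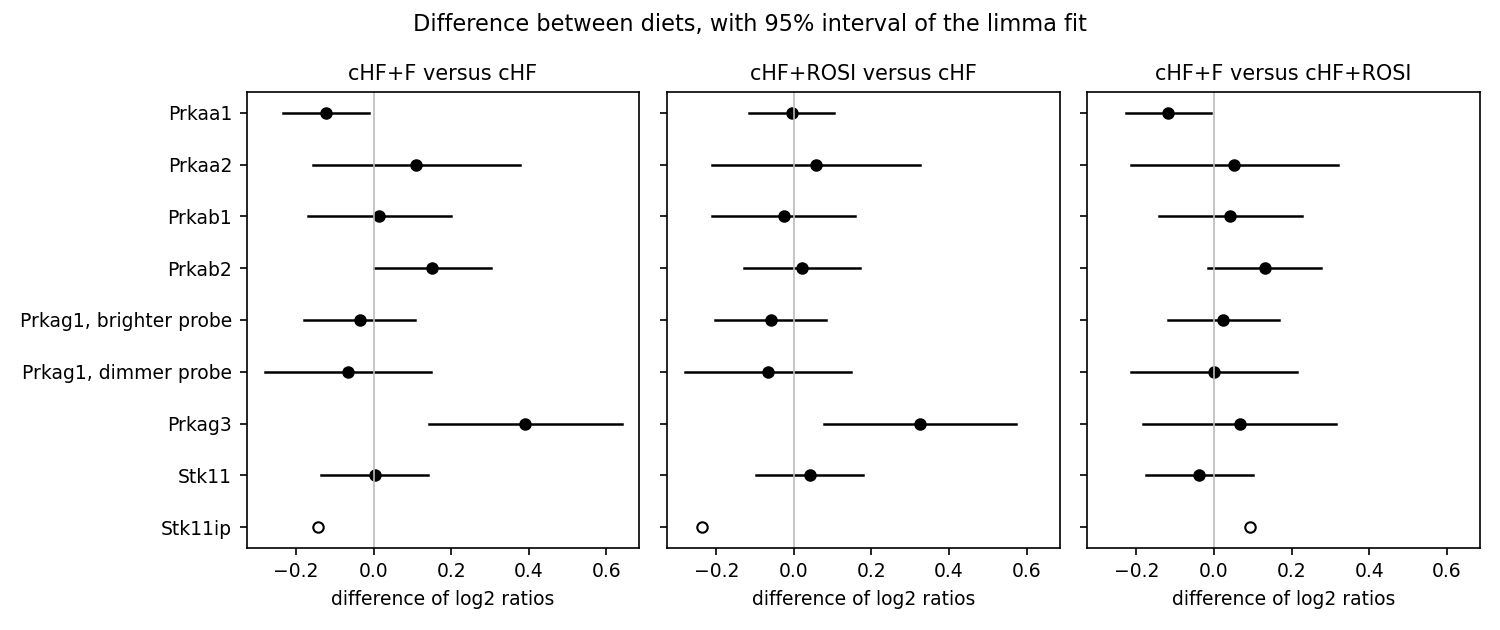
Difference of log2 ratios between diets (horizontal axis) for each probe, with the 95% interval of the limma fit as a line, in 3 panels for the 3 comparisons. Stk11ip is an open point without an interval because it was not tested. The intervals of Prkag3 lie above 0 in both comparisons with cHF (0.14 to 0.64 and 0.077 to 0.57), before any correction for multiple tests.

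Of the beta subunits, Prkab2 had slightly higher ratios in the cHF+F mice than in the cHF mice and Prkab1 overlapped widely, and neither passed the correction. Prkab2, the beta subunit that predominates in skeletal muscle (A_52_P126266, chromosome 3, 97758325 to 97758384), ranged from -0.25 to 0.010 in cHF with a median of -0.17 (7 mice, since the spot of replicate 2 had a quality flag), from -0.097 to 0.17 in cHF+F with a median of -0.036, and from -0.49 to 0.17 in cHF+ROSI with a median of -0.13. All 8 cHF+F mice lay above the cHF mean, and the cHF+ROSI mice spread over the ranges of both other groups. The means were -0.16 ± 0.087 (n = 7), -0.0068 ± 0.090 (n = 8) and -0.14 ± 0.21 (SD, n = 8).

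The difference of Prkab2 for cHF+F versus cHF was 0.15 (SE 0.073, 95% interval 0.00064 to 0.30, 1.11-fold), with a limma unadjusted p of 0.0491 and an adjusted p of 0.724. It was higher in the cHF+F mouse on 7 of 7 slides, by 0.0083 to 0.42. Median centring in place of loess gave 0.088, and the limma unadjusted p was under 0.05 in 8 of 24 fits without 1 array and in 10 of 14 other settings, with the highest p of the former, 0.102, without cHF+F replicate 1. Leaving out a cHF+ROSI array kept this difference at 0.15 and changed only its SE and p. For cHF+ROSI versus cHF the difference was 0.021 (95% interval -0.13 to 0.17), and for cHF+F versus cHF+ROSI it was 0.13 (-0.015 to 0.28). That last difference turned to -0.054 with the signal of the mouse alone, while the pool, which should not differ between diets, gave -0.18.

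Prkab1, the other scaffold (A_52_P505346, chromosome 5, 116275087 to 116275146), had means of 0.0078 ± 0.22 in cHF, 0.023 ± 0.17 in cHF+F and -0.019 ± 0.16 in cHF+ROSI (SD, n = 8 each). Its differences were 0.015 for cHF+F versus cHF (95% interval -0.17 to 0.20) and -0.027 for cHF+ROSI versus cHF (-0.21 to 0.16). The slides accounted for 81.1% of its variance, and the lowest mouse of each of the 3 groups was that of slide 1.

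Of the catalytic subunits, Prkaa1 had slightly lower ratios in the n-3 LC-PUFA group and Prkaa2 overlapped widely, and neither passed the correction. Prkaa1, the alpha subunit found in most tissues (A_51_P158922, chromosome 15, 5128641 to 5128700), ranged from -0.14 to 0.082 in cHF with a median of -0.047, from -0.27 to -0.077 in cHF+F with a median of -0.15, and from -0.29 to 0.073 in cHF+ROSI with a median of 0.010. All 8 cHF+F mice were below the means of both other groups, although all groups overlapped. A further Prkaa1 probe (A_52_P173344) was too dim, with a ratio of signal to background of 1.72 in Cy3, although it was well above background in Cy5 on 23 of 24 arrays. Without the filter on dim probes it differed by 0.037 for cHF+F versus cHF, opposite in sign to the brighter probe, by 0.069 for cHF+ROSI versus cHF and by -0.032 for cHF+F versus cHF+ROSI (limma adjusted p 0.93, 0.81 and 0.985).

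Prkaa1 differed for cHF+F versus cHF by -0.12 (SE 0.053, 95% interval -0.23 to -0.013, 0.918-fold), with a limma unadjusted p of 0.0298 and an adjusted p of 0.661. For cHF+F versus cHF+ROSI it was -0.12 as well (95% interval -0.23 to -0.0081, limma unadjusted p 0.0364, adjusted p 0.74), whereas for cHF+ROSI versus cHF it was -0.0050 (-0.11 to 0.10). Within slides the cHF+F mouse was lower than the cHF mouse on 7 of 8 slides, with a median of -0.11, and lower than the cHF+ROSI mouse on 7 of 8, with a median of -0.15. With the signal of the mouse alone the difference for cHF+F versus cHF was -0.20 and that for cHF+F versus cHF+ROSI was -0.0070. The pool, which should not differ between diets, gave -0.069 and 0.074.

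Prkaa2, the alpha subunit that predominates in skeletal muscle (A_52_P137378, chromosome 4, 104533035 to 104533094), ranged from -0.51 to 0.29 in cHF, from -0.35 to 0.50 in cHF+F and from -0.64 to 0.29 in cHF+ROSI. The lowest mouse of each of the 3 groups was again that of slide 1, and the slides accounted for 66.8% of the variance. The means were -0.069 ± 0.26, 0.041 ± 0.26 and -0.012 ± 0.31 (SD, n = 8 each). The difference was 0.11 for cHF+F versus cHF (95% interval -0.16 to 0.38) and 0.057 for cHF+ROSI versus cHF (-0.21 to 0.32), with limma unadjusted p-values of 0.407 and 0.663. Leaving out 1 array moved the former difference to between 0.044, without cHF+F replicate 8, and 0.17, without cHF+F replicate 1, and it was 0.047 without cHF replicate 1.

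Stk11, which encodes the kinase LKB1 (A_51_P167754, chromosome 10, 79533662 to 79533721), was about level. Its ratios ranged from -0.13 to 0.17 in cHF, from -0.18 to 0.20 in cHF+F and from -0.11 to 0.31 in cHF+ROSI, with medians of -0.042, 0.00085 and -0.024. The means were -0.013 ± 0.12, -0.011 ± 0.13 and 0.028 ± 0.15 (SD, n = 8 each). The difference was 0.0028 for cHF+F versus cHF, with a 95% interval of -0.14 to 0.14, and 0.041 for cHF+ROSI versus cHF, with an interval of -0.097 to 0.18. Its SD over all arrays was 0.13, above that of 32.8% of probes.

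Stk11ip encodes a leucine-rich repeat protein that binds LKB1 (A_51_P516994, chromosome 1, 75419602 to 75419661). In the cHF mice its log2 ratio ranged from 0.097 to 0.49 with a median of 0.24, in the cHF+F mice from -0.073 to 0.31 with a median of 0.10, and in the cHF+ROSI mice from -0.12 to 0.15 with a median of 0.034. The 3 groups lay in the order cHF, cHF+F, cHF+ROSI, and the ranges of neighbours in this order overlapped. The means were 0.25 ± 0.12, 0.11 ± 0.13 and 0.018 ± 0.090 (SD, n = 8 each), a difference of -0.24 for cHF+ROSI versus cHF (0.849-fold) and of -0.14 for cHF+F versus cHF (0.905-fold).

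Since Stk11ip was chosen by cHF+ROSI versus cHF on these arrays, and cHF+F versus cHF uses the same cHF mice, what follows is no support for either difference. All 8 cHF+ROSI mice were below the cHF mean of Stk11ip. Within slides the cHF+ROSI mouse was lower than the cHF mouse on 8 of 8 slides, with differences from -0.43 to -0.053 and a median of -0.23. The cHF+F mouse was lower than the cHF mouse on 6 of 8 slides, slides 3 and 6 being the exceptions. With the signal of the mouse alone the differences were -0.35 for cHF+ROSI versus cHF and -0.25 for cHF+F versus cHF, while the pool gave -0.096 and -0.086. Of the members it had the smallest share of variance between slides, 19.1%.

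**Figure D3:**
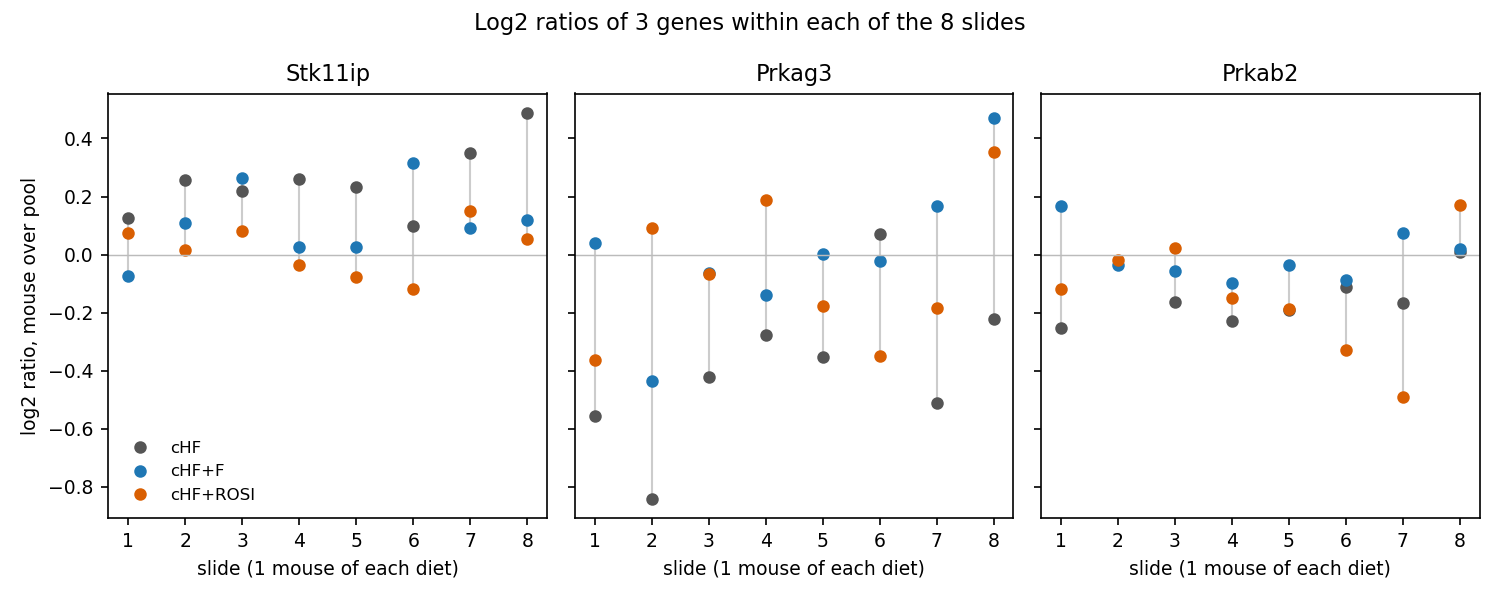
Log2 ratio of the mouse over the pool (vertical axis) on each of the 8 slides (horizontal axis) for Stk11ip, Prkag3 and Prkab2. Points are mice, coloured by diet, and a grey line joins the mice of a slide. The cHF+ROSI mouse lies below the cHF mouse on 8 of 8 slides for Stk11ip, a gene that was chosen by this comparison on these arrays. The cHF mouse of slide 2 is missing for Prkab2 because its spot had a quality flag.

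The members differed in how widely they varied among the mice. Over the 24 arrays the SD was 0.30 for Prkag3 and 0.27 for Prkaa2, higher than in 95.1% and 93.2% of the 15958 probes. Prkaa1 varied little, with an SD of 0.11, above 15.1% of probes, and the median over all probes was 0.15. Part of this spread lay between the means of slides, as given above for Prkab1 and Prkaa2. Each slide held different mice, so spread between slides is not cleanly separated from spread between mice.

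The subunits typical of muscle were compared across the arrays. The Pearson correlation was 0.57 for Prkab2 with Prkag3 (Spearman 0.62, 23 arrays), 0.54 for Prkaa2 with Prkag3 (Spearman 0.49) and 0.26 for Prkaa2 with Prkab2 (Spearman 0.33, 23 arrays). Among all 10696 genes compared, the share with a lower correlation than the pair was 99.3% seen from Prkag3 and 99.5% seen from Prkab2 for the first pair, 98.9% seen from Prkag3 and 93.8% seen from Prkaa2 for the second, and 76.5% seen from Prkaa2 and 88.0% seen from Prkab2 for the last. After subtraction of group and slide means the correlations were 0.53, 0.71 and 0.42, and on the 15 arrays of slides 4 to 8 they were 0.63, 0.51 and 0.45. Without the 2 arrays farthest from the median of Prkag3 they were 0.57 with Prkab2 and 0.38 with Prkaa2. All points share the reference pool and, in part, a slide, and these are descriptions with no test.

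Among the other pairs, Prkag1 and Stk11 had the highest correlation, 0.69 (Spearman 0.62), which was 0.68 after subtraction of group and slide means. Prkaa2 and Prkab1 correlated at 0.53 as measured but at 0.023 after this subtraction and at 0.032 without slides 1 to 3. Stk11ip had its lowest value with Prkag3, -0.34 (Spearman -0.41), and lay between -0.10 and 0.22 with the others. The correlations were different when the pool channel was left out. With the signal of the mouse alone, Prkab2 and Prkag3 correlated at -0.63, Prkaa2 and Prkag3 at 0.030 and Prkag1 and Stk11 at 0.20, while Prkaa1 and Stk11ip reached 0.85 against 0.073 for the ratios. In cHF the signal of the common pool varied about as much as that of the mouse. Its SD was 0.60 against 0.70 for Prkab2 and 0.60 against 0.56 for Prkag3. In cHF+ROSI these were 0.21 against 0.22 and 0.18 against 0.37. The signal of the mouse alone thus also holds differences between arrays, and their part in its correlations was not tested.

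**Figure D4:**
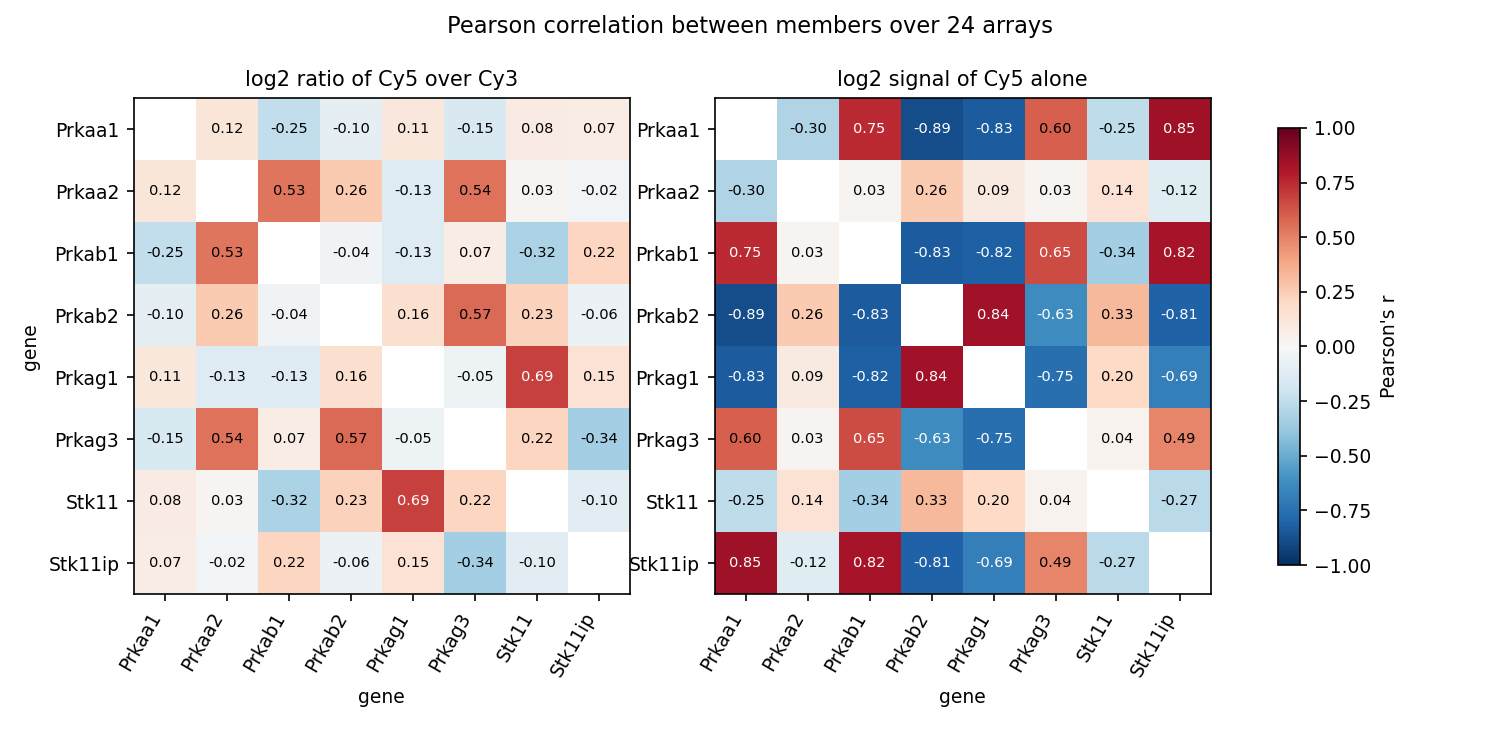
Pearson correlation between the 8 measured members over the arrays, for the log2 ratio (left) and for the log2 signal of the mouse alone (right), with 1 cell per pair of genes and the value printed in it. The ratios show 0.69 for Prkag1 with Stk11 and 0.57 for Prkab2 with Prkag3, which become 0.20 and -0.63 with the signal of the mouse alone.

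By likeness of the log2 ratio over the 24 arrays, the genes closest to Stk11ip were Gpatch1 (Pearson correlation 0.84), Fbxo32, a muscle ubiquitin ligase (0.82), Gmpr (0.79) and Gimap1 (0.78). After subtraction of group and slide means these were 0.88, 0.72, 0.62 and 0.51. The genes closest to Stk11 were Mrps5 (0.84), Zdhhc16 (0.84), Tsen54 (0.82), the kinase Akt2 (0.82) and Mocs2 (0.82). Those closest to Prkaa2 were Cacna2d1, a calcium channel subunit (0.90), Pbrm1 (0.90), Nfatc3 (0.90), Plec (0.88) and Trip11 (0.87). These genes were the closest of 10696, 4 for Stk11ip and 5 for each of the others, and were not tested.

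The wider pathway was described by a list of 57 other genes, of which 49 had a probe that was bright enough, 7 were too dim and 1 had no probe. The list was chosen with earlier results of these data known, so its counts beside the share of all probes are a description. In each of the 3 comparisons 0 of the 49 had a limma adjusted p under 0.05. Without adjustment, 10 of 49 were under 0.05 in cHF+F versus cHF (3 higher, 7 lower), with 6.86% among all probes, and the median difference was -0.023 against 0.00063 over all probes. For cHF+ROSI versus cHF it was 4 of 49 (1 higher, 3 lower), with 4.7% among all probes and medians of -0.033 and -0.0086. In cHF+F versus cHF+ROSI it was 4 of 49 (1 higher, 3 lower), with 6.67% among all probes and medians of -0.0033 and 0.0084.

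By role, 24 of the 49 genes were substrates and targets of AMPK. Of these 24, 7 had p under 0.05 without adjustment in cHF+F versus cHF, 1 higher and 6 lower, where 2.85% of all probes were higher and 4% lower. In cHF+ROSI versus cHF it was 4 of 24, 1 higher and 3 lower, where 1.69% of all probes were higher and 3.01% lower. Whatever the p-value, 15 of the 24 and 26 of all 49 genes had a difference under 0 in cHF+F versus cHF. In cHF+ROSI versus cHF it was 17 of the 24 and 31 of the 49. Among all 15958 probes, 7919 had a difference under 0 in cHF+F versus cHF and 8728 in cHF+ROSI versus cHF. The roles were not tested against each other, and their counts, like those of the whole list, are a description. In the other roles, p was under 0.05 without adjustment in cHF+F versus cHF for 1 of 7 upstream kinases and partners of LKB1. The same held for 1 of 7 AMPK-related kinases and 1 of 11 inputs, and for cHF+ROSI versus cHF it was 0 in each of these roles.

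Hdac5, Nuak1 and Ulk1 ranked first by p-value in cHF+F versus cHF. Hdac5, a class IIa histone deacetylase that AMPK phosphorylates, had a mean of -0.19 ± 0.13 in cHF+F against 0.029 ± 0.076 in cHF (SD, n = 8 each), a difference of -0.22 (SE 0.064, limma unadjusted p 0.00177, adjusted p 0.403). Nuak1, an AMPK-related kinase that LKB1 activates, was at -0.25 ± 0.15 against 0.080 ± 0.28, a difference of -0.33 (SE 0.11, limma unadjusted p 0.00471, adjusted p 0.473). Ulk1, the kinase that starts autophagy, was at -0.036 ± 0.13 against 0.20 ± 0.12, a difference of -0.24 (SE 0.082, limma unadjusted p 0.0078, adjusted p 0.512). With the signal of the mouse alone the differences were -0.062 for Hdac5, -0.25 for Nuak1 and -0.15 for Ulk1.

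For cHF+ROSI versus cHF the 3 genes were Ulk1, Srebf1 and Acacb, and the remaining one, Tbc1d1, was named after its values were seen because the count was small. Ulk1 was at -0.065 ± 0.24 in cHF+ROSI, against the same cHF mice (difference -0.27, SE 0.082, limma unadjusted p 0.0033, adjusted p 0.996). Srebf1, a transcription factor of lipid synthesis, was at -0.016 ± 0.23 against -0.31 ± 0.21 (difference 0.30, limma unadjusted p 0.00948, adjusted p 0.996). Acacb, the acetyl-CoA carboxylase that restrains fatty acid entry into mitochondria, differed by -0.18 and Tbc1d1, a regulator of glucose transporter traffic, by -0.21, with limma unadjusted p-values of 0.0326 and 0.0399 and an adjusted p of 0.996 for both. With the signal of the mouse alone Ulk1 differed by -0.17 and Acacb by -0.064, and without slides 1 to 3 Srebf1 differed by 0.15.

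Srebf1 also had the smallest p-value of the pathway genes for cHF+F versus cHF+ROSI. It was at -0.56 ± 0.24 in cHF+F (SD, n = 8), a difference of -0.54 (SE 0.11, limma unadjusted p 2.37e-05, adjusted p 0.379), and its adjusted p was 0.0452 without cHF+F replicate 7 and also without cHF+ROSI replicate 7. Hdac5 differed by -0.17 and Nuak1 by -0.27 between these groups (limma adjusted p 0.64 and 0.679), and over the alternatives Hdac5 ranged from -0.51 to -0.050 and Nuak1 from -0.33 to -0.16. The fourth gene, named after its values were seen, was Ak1, an adenylate kinase that makes AMP available, with 0.20 (limma unadjusted p 0.0419, adjusted p 0.74).

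**Figure D5:**
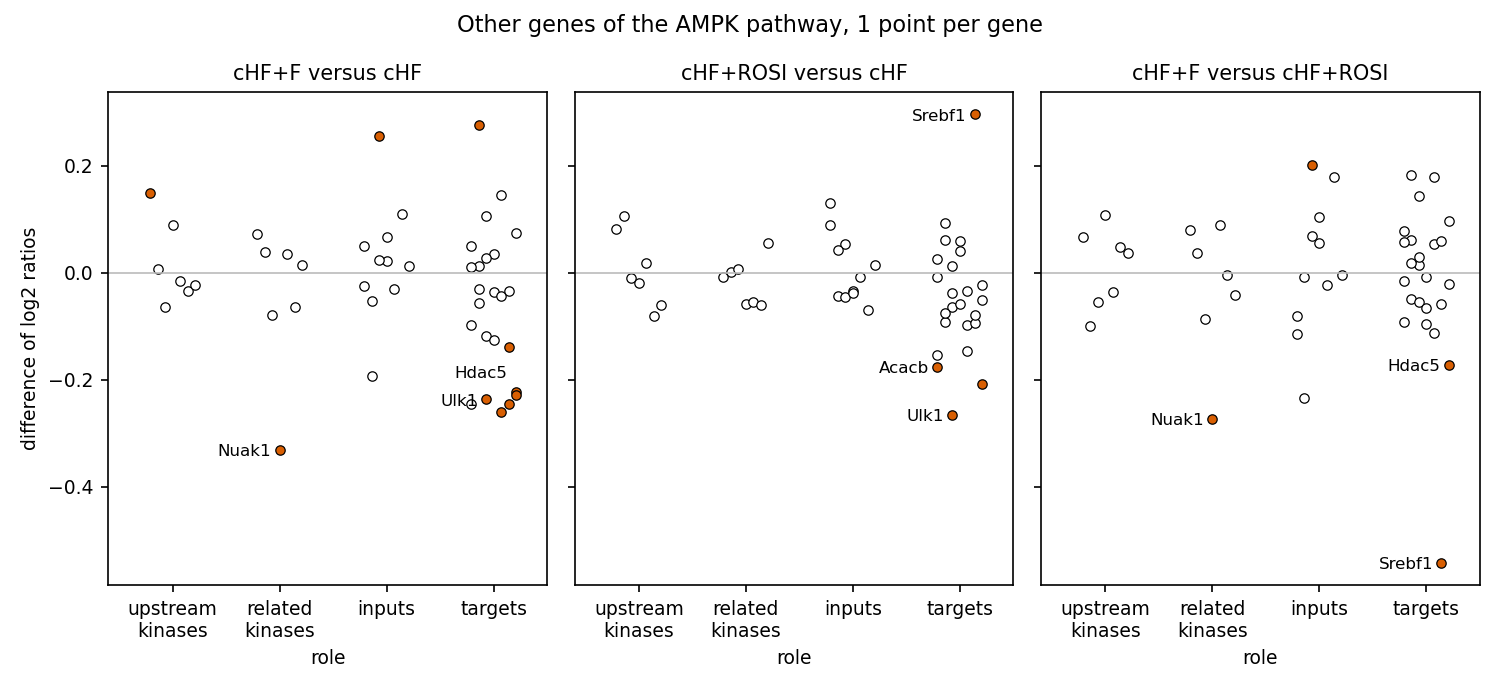
Difference of log2 ratios between diets (vertical axis) for 49 other genes of the AMPK pathway by role (horizontal axis), 1 point per gene, in 3 panels for the 3 comparisons. Filled points have a limma unadjusted p under 0.05 and the named genes have the 3 smallest p-values of a comparison. No point passed the correction, and 10, 4 and 4 points are filled.

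Markers of fibre type and of other cells were described without a test, and the ranges of the groups overlapped for each list of fibre markers. The mean of the 7 slow fibre markers was 0.13 ± 0.34 in cHF (range -0.33 to 0.74), -0.30 ± 0.49 in cHF+F (-1.15 to 0.44) and -0.096 ± 0.62 in cHF+ROSI (-1.28 to 0.64). That of the 9 fast fibre markers was 0.21 ± 0.28 (-0.28 to 0.46), 0.22 ± 0.23 (-0.12 to 0.43) and 0.072 ± 0.44 (-0.94 to 0.40). Of the slow fibre markers 6 of 7 were lower in cHF+F than in cHF (median difference -0.52), and 5 of 7 in cHF+ROSI (-0.24). Of the fast fibre markers 6 of 9 were higher in cHF+F than in cHF (0.044), and 8 of 9 were lower in cHF+ROSI (-0.14). Between cHF+F and cHF+ROSI, 6 of 7 slow markers were lower (-0.15) and 9 of 9 fast markers higher (0.15) in cHF+F. Over the arrays Prkag3 correlated at -0.34 with the slow and at 0.25 with the fast fibre mean, Prkab2 at -0.49 and -0.043, Prkaa1 at 0.48 and -0.13, and Stk11ip at 0.074 and 0.066. After subtraction of group and slide means the correlations with the slow fibre mean were -0.13 for Prkag3, -0.23 for Prkab2 and 0.21 for Prkaa1. The part of fibre type in the differences of the members was not tested.

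Among the other lists, the 5 endothelial and the 5 macrophage markers were lower in both cHF+F and cHF+ROSI than in cHF (5 of 5 each), with median differences of -0.11 and -0.13 in cHF+F and of -0.15 and -0.075 in cHF+ROSI. The mean of the endothelial markers ranged from -0.19 to 0.29 in cHF, from -0.18 to 0.11 in cHF+F and from -0.19 to 0.15 in cHF+ROSI, and that of the macrophage markers from -0.21 to 0.25, from -0.51 to 0.098 and from -0.27 to 0.14. The 6 adipocyte markers were spread widely in every group, with means on an array from -1.06 to 0.74 in cHF, -1.44 to 1.09 in cHF+F and -0.97 to 0.37 in cHF+ROSI. The 5 liver markers that were bright enough (of 8) had means on an array from -2.30 to -0.52 in cHF, -1.64 to 0.72 in cHF+F and -2.32 to 1.40 in cHF+ROSI, with 5 of 5 higher in cHF+F and in cHF+ROSI than in cHF (median differences 0.40 and 0.69). The 3 markers of sperm protein had means from -0.91 to -0.23 in cHF, -0.92 to 0.73 in cHF+F and -0.88 to 2.49 in cHF+ROSI. The highest liver and sperm protein means, 1.40 and 2.49, and the lowest slow fibre mean, -1.28, were all those of cHF+ROSI replicate 8, which also had the highest ratios of its group for Prkag3 (0.35) and Prkab2 (0.17). Without this array the difference for cHF+ROSI versus cHF was 0.27 for Prkag3 and -0.023 for Prkab2. The 3 of 4 blood markers that were bright enough had means from -0.44 to 0.96 in cHF, -0.80 to 1.1 in cHF+F and -0.68 to -0.039 in cHF+ROSI. The part of these cells in the differences of the members was not tested.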

How the data were processed

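Each of 24 mice, 8 per diet, gave 1 two-colour array. Spot and local background intensities, on a linear scale, were deposited as written by Feature Extraction version 10.5.1.1 per the file headers. The authors also deposited a table of log2 values of Cy5 normalized against Cy3 after dim probes were removed (20721 rows), of which 16 columns name the cHF and cHF+F groups. The other 8 columns match no group of the series and were not used.

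Of 43379 spots that were not controls, median intensities were corrected for background (normexp, offset 50), normalized within each array by loess (span 0.3) and averaged per probe. Flagged spots were treated as missing. Probes with a signal to background ratio of at least 2 in both channels and at least 4 unflagged arrays per group were kept, and signal over background and the number of arrays set the precision. Log2 ratios were compared with limma 3.58.1 in R 4.3.3 (package data.table, version 1.17.8), two-sided, in 1 model of the 3 groups, with Benjamini-Hochberg adjustment over all 15958 probes and a threshold of 0.05. The fit was tested on simulated data of independent normal values, which held no effect of slides and so do not cover that feature of the arrays. Alternatives were the slide as a block, no background correction, the scanner software's processed intensity (also deposited), median centring, a span of 0.1, Cy5 alone after quantile normalization, no filter on dim probes or a ratio of at least 3, array weights, only the groups compared, the methods' test, the log2 values of the authors, and leaving out each array. Fits without slides 1 to 3 and, with the slide as a block, without cHF+ROSI replicate 4 were added after the data had been seen.

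The members, the pathway list and the marker lists were chosen with earlier results of these data known. Named were all members by every kept probe, the 3 pathway genes with the smallest p-values in each comparison, and for Stk11ip, Stk11 and Prkaa2 the 5 genes with the highest correlation, of which 1 is not reported here. The brightest kept probe stood for a gene. Of the kept probes 12577 were named through their accession, 2544 by the name in the scanner file, and 837 had no symbol. Numbers of replicates were those of the deposited titles and also those of the slides.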

Additional observations from a re-analysis of the deposited data

How the results depend on the processing

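No member passed the correction under any of the alternatives. The t-test of the methods at p under 0.05 without adjustment counted 3, 1 and 1 member probes and 9, 3 and 3 pathway genes for n-3 LC-PUFA against cHF, rosiglitazone against cHF and n-3 LC-PUFA against rosiglitazone, and 0 after Benjamini-Hochberg adjustment. Among all 15958 probes the same t-test without adjustment counted 1265, 755 and 938. The pathway count for cHF+F versus cHF+ROSI ranged from 0 to 1 when each array was left out, the 1 being Srebf1 without cHF+F replicate 7 or cHF+ROSI replicate 7. For Stk11ip, whose choice fixed its direction in cHF+ROSI versus cHF, Cy5 alone gave -0.35 there. Prkag3 had a limma unadjusted p under 0.05 in 12 of 14 settings for cHF+F versus cHF, in 10 of 13 for cHF+ROSI versus cHF, and in all 24 fits without 1 array for each. In cHF+F versus cHF this was 8 of 14 settings and 19 of 24 fits for Prkaa1, and 10 of 14 and 8 of 24 for Prkab2. The 3 diets had the same position on every slide, and the dimmer arrays of slides 1 to 3 limit the precision of low signals.

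Differences that had a limma unadjusted p over 0.05 as reported changed sign under some alternatives, and the cause was not tested. In cHF+F versus cHF, Prkab1 was -0.014 with median centring, -0.11 with Cy5 alone, -0.017 with array weights and -0.017 without slides 1 to 3, the brighter Prkag1 probe was 0.052 with Cy5 alone and 0.041 in the authors' log2 values, and Stk11 was -0.070 with median centring and -0.030 without slides 1 to 3. In cHF+ROSI versus cHF, Prkaa1 was 0.019 with the processed signals, 0.0042 with a span of 0.1 and 0.0091 with the replicate block and no cHF+ROSI replicate 4, Prkaa2 was -0.038 with Cy5 alone and -0.032 without slides 1 to 3, Prkab1 was 0.019 with no background correction, Prkab2 was -0.0094 with the processed signals and -0.059 without slides 1 to 3, the brighter Prkag1 probe was 0.025 with median centring and 0.14 with Cy5 alone, and Stk11 was -0.017 with no background correction, -0.0030 with the processed signals and -0.066 without slides 1 to 3. In cHF+F versus cHF+ROSI, Prkaa2 was -0.015 with median centring and -0.018 with array weights, Prkab2 was -0.054 with Cy5 alone, the brighter Prkag1 probe was -0.065 with median centring, -0.083 with Cy5 alone and -0.0097 with array weights, the dimmer Prkag1 probe was -0.032 with no background correction, -0.078 with the processed signals, -0.0045 with a span of 0.1, -0.098 with array weights and -0.016 without slides 1 to 3, and Stk11 was 0.032 with no background correction, 0.020 with the processed signals, 0.012 with Cy5 alone and 0.035 without slides 1 to 3.

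When each array was left out in turn, Prkab1 ranged from -0.054 to 0.060 and Stk11 from -0.027 to 0.030 in cHF+F versus cHF. In cHF+ROSI versus cHF Prkaa1 ranged from -0.021 to 0.031, Prkaa2 from -0.0053 to 0.15, Prkab1 from -0.096 to 0.016 and Prkab2 from -0.023 to 0.071. In cHF+F versus cHF+ROSI Prkaa2 ranged from -0.038 to 0.11, Prkab1 from -0.0012 to 0.087, the brighter Prkag1 probe from -0.013 to 0.069, the dimmer one from -0.058 to 0.041, Prkag3 from -0.00081 to 0.13 and Stk11 from -0.068 to 0.0014.

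With the slide, and so the replicate number, as a block (replicate block), 0 member probes were called in each comparison, and the limma adjusted p of Prkag3 was 0.149 for cHF+F versus cHF and 0.359 for cHF+ROSI versus cHF. Over all 15958 probes the block gave 6, 0 and 0 calls against 0 in each without it. Deviations of same-numbered mice from their group means correlated between -0.11 and 0.64 in cHF+F versus cHF, 0.036 and 0.60 in cHF+ROSI versus cHF, and -0.0038 and 0.46 in cHF+F versus cHF+ROSI, with 6, 7 and 5 of 8 correlations over 0.1. In these comparisons 5, 4 and 2 of 8 mice correlated best with their own number. Since not every correlation was over 0.1, the block is given as an alternative, although mice with the same number shared a slide. The SE of every tested member probe for cHF+F versus cHF was smaller with the block. It was 0.051 against 0.090 for Prkab1 and 0.088 against 0.13 for Prkaa2, so the intervals given without the block are wider.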
